A study of Mus musculus with 7 samples.

Results

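The type I interferon-stimulated genes examined here are 34 named antiviral genes, out of 22629 rows in a table of read counts from whole s/c tumors of mouse pancreatic ductal adenocarcinoma (PDA). They were taken as a list of gene symbols by a rule that used no measured value, although the list was drawn up with earlier results of these data known, and all 34 were found in the table and had enough counts for a test, among 17489 genes that did. RNA-seq had been performed on 7 tumors harvested 2 weeks after inoculation, 3 formed with sgScramble control PDA cells (tumors 1, 4 and 5) and 4 formed with sgScramble PDA cells that expressed icOVA (tumors 15, 16, 18 and 2), to ask how a foreign antigen made by the cancer cells alters the tumor. All tumors arose from the 1242 KPC line, which comes from a pancreatic tumor of a KPC mouse, a genetic model whose alleles are switched on in the pancreas by Pdx1-Cre, and all of its sgScramble cells carry lentiviral SpCas9 with a control guide. The hosts were C57BL/6 mice bought at 6 weeks of age and housed for 2 weeks before use. icOVA is ovalbumin kept in the cytoplasm, encoded by a doxycycline (Dox)-inducible lentiviral vector that also encodes GFP. It was induced with Dox food from the day of inoculation, and the cells carrying it had been sorted and cloned from single cells.

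Several features of the groups limit them as a model. The methods describe both polyclonal and single-cell cloned sgScramble cells and do not say which formed the control tumors, nor whether the control mice received Dox or the control cells the empty vector. The paper also formed tumors from the icOVA-inducible cells without Dox, and whether the control tumors here were of that kind is not stated. The methods also give a larger inoculum for the ovalbumin-inducible cells than for s/c tumors in general. The effects of antigen, vector, Dox, clone and inoculum on these genes therefore cannot be told apart. Each tumor is its own sample in the labels, which do not state that each came from its own mouse, so that p-values measure the spread between these samples.

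Total counts ran from 30904855 to 37510591 per tumor. OVA, the transgene, had 2.58 to 4.35 CPM (read counts relative to library size, scaled by the TMM method) in sgScramble tumors and 98.2 to 308 CPM in icOVA tumors. Of 5 leukocyte markers, 4 rose in icOVA tumors, Ptprc (CD45), Cd53, Cd52 and Laptm5 (3 without icOVA tumor 18), and the sum of the 5 was 534 to 726 CPM in sgScramble and 930 to 1260 CPM in icOVA tumors. Markers of cancer epithelium (keratins, Epcam and Cdh1) did not differ detectably, with 0 of 7 called by edgeR or DESeq2 and 0 at an unadjusted p below 0.05, although 1 of 7, Krt20, rose without icOVA tumor 18. Their sum was 4670 to 5230 CPM in 6 tumors and 3090 CPM in icOVA tumor 18, which also had the highest sum of 8 fibroblast markers, 37100 CPM, against 5770 to 26900 CPM in the others. Tumor 18 thus stood apart in the sum of cancer epithelium markers, whereas in fibroblast markers icOVA tumor 15 was next to it, at 26900 CPM. The counts of genes called and the spread between tumors are also given without tumor 18.

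Type I interferons are the alpha interferons, interferon beta and their relatives, which nearly every nucleated cell can make after its receptors detect viral or misplaced nucleic acid. They bind the receptor IFNAR1-IFNAR2, whose kinases TYK2 and JAK1 phosphorylate STAT proteins, STAT2 among them. STAT2 and IRF9 belong to the complex ISGF3, which binds an interferon-stimulated response element (ISRE) in the promoters of a large number of genes. Interferon gamma acts through another receptor and the gamma-activated site (GAS), and many interferon-stimulated genes respond to both. In tumors, type I interferon is known from dendritic cells and other leukocytes and from the cancer cells themselves, and is associated with the priming of CD8+ T cells.

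Promoters were searched for both motifs on both strands, the ISRE as GAAANNGAAA (TTTCNNTTTC on the other strand) and the GAS as TTCNNNGAA, which reads the same on both strands. Windows of 250 bases before to 50 bases after the annotated start were available from RefSeq (GRCm38.p6) for 24 of the 34 genes. An ISRE was found in 12 of these 24 genes, against 3.99% of 27025 genes with a window. In 9 of the 12 at least 1 match lay before the start. The GAS was found in 6 of 24, against 9.55%. A match describes these letters only. The 7 stretches below, all before the start and read 5′ to 3′ on the strand of the gene, show the ISRE in capitals, with overlapping matches joined, for genes that differ widely in their response. Rsad2 and Trim30a rose in icOVA tumors, Isg15, Ifit1, Ifit3 and Oas3 did not pass the test, and Bst2 had nearly the same level in both groups.
Rsad2, chr12:26456523-26456612, minus strand: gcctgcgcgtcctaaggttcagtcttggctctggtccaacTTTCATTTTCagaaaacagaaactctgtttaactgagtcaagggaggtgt
Trim30a, chr7:104465194-104465269, minus strand: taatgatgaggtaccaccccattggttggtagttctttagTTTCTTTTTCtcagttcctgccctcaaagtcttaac
Isg15, chr4:156200835-156200936, minus strand: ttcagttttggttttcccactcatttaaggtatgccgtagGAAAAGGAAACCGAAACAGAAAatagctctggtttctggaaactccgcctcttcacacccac
Ifit1, chr19:34640745-34640853, plus strand: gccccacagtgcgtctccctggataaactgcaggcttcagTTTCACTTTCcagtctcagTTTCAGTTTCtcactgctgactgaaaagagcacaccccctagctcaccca
Ifit3, chr19:34583333-34583456, plus strand: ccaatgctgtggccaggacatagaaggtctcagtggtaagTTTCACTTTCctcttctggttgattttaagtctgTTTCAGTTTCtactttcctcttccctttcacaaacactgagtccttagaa
Oas3, chr5:120777685-120777774, minus strand: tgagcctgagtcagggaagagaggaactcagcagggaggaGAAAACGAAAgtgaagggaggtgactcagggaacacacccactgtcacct
Bst2, chr8:71537547-71537642, minus strand: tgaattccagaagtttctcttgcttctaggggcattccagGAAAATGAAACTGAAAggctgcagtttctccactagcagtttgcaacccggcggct
The ISRE therefore occurred on both sides of the threshold. It was found in 2 of the 5 genes with a window that rose and in 10 of the 19 others. Of the genes that rose, Cmpk2, Irf7 and Ifit2 had no match in their windows, and no window was examined for Mx1 or Ifi27l2a. Isg15 held 3 overlapping matches and Bst2 held 2, and neither gene passed the test.

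In icOVA tumors, 7 of the 34 genes rose and 0 fell. These were Ifi27l2a, Mx1, Rsad2, Cmpk2, Trim30a, Ifit2 and Irf7, with log2 fold changes from 0.36 to 1.14. The test was the quasi-likelihood test of edgeR, fitted on the whole table, and a gene was called when its Benjamini-Hochberg adjusted p over the 17489 genes was below 0.05. By the same rule 3.36% of all genes rose and 2.54% fell. The log2 fold change was above 0 for 34 of the 34 genes, against 49.4% of all genes, and its median was 0.25, against -0.0048 for all genes. In 10 of the 34 genes all 4 icOVA tumors exceeded all 3 sgScramble tumors, against 11.3% of all genes. These were the 7 that rose and Ifih1, Dhx58 and Ifi35. At an unadjusted p below 0.05 were 13 of the 34, against 4763 of 17489. With limma-voom the same 7 passed, with 2.96% of all genes, and with DESeq2 9 passed, Ifih1 and Oas1a being added, with 8.91% of all genes. In whole tumors, more cells of a type and more RNA per cell cannot be told apart.

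**Figure D1:**
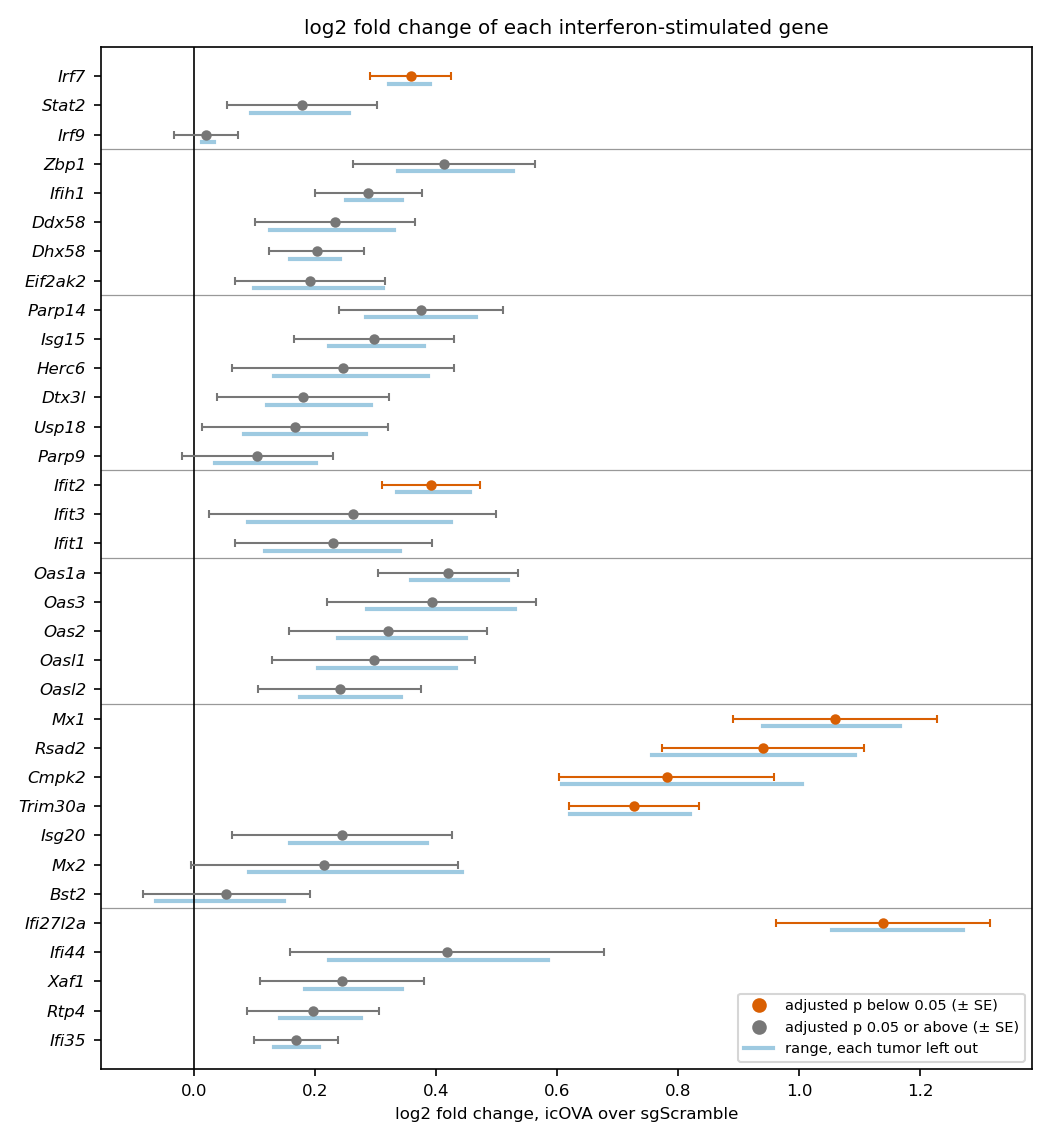
log2 fold change of each of the 34 genes, icOVA over sgScramble, on the horizontal axis (points, ± SE), with the range over the 7 fits that each left out 1 tumor (pale bars). The 7 genes that passed the threshold are in orange, 4 of them in the group of MX, viperin and other effectors, and all 34 points lie above 0, with Irf9 (0.02) and Bst2 (0.05) nearest to it.

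The calls rested on few tumors. None of the 34 passed without sgScramble tumor 1, sgScramble tumor 5, icOVA tumor 15 or icOVA tumor 2, where 0, 0, 0 and 6 of all genes rose and where 11, 9, 12 and 10 of the 34 had an unadjusted p below 0.05 in edgeR, against 3087 of 17752, 2936 of 17862, 3415 of 17220 and 4008 of 17293 genes. The same 7 passed without sgScramble tumor 4 or icOVA tumor 16, where 862 of 17880 and 1014 of 17247 genes rose. Without icOVA tumor 18, 12 rose, against 3.58% of all genes. Ifih1, Oas1a, Oas2, Oas3, Parp14 and Zbp1 then joined, and Cmpk2 did not pass. The median log2 fold change of the 34 genes stayed between 0.18 and 0.38 in these 7 fits. Scaled to Ptprc, so that values are per CD45 transcript, the median of all genes moved to -1.1 and 80.4% of them fell. By that scale 28 of the 34 genes fell and 0 rose, Ifi27l2a alone had a log2 fold change above 0 (0.03), and the median of the 34 was -0.81, which is 0.29 above that of all genes, as it was 0.26 above with the usual scale.

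**Figure D2:**
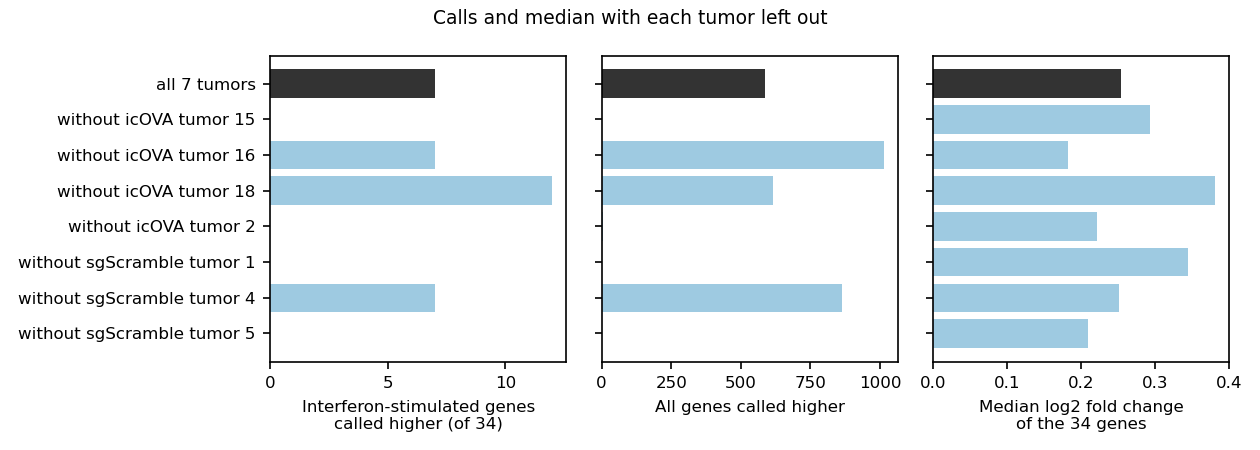
Interferon-stimulated genes called higher (left), all genes called higher (middle) and the median log2 fold change of the 34 interferon-stimulated genes (right), with all 7 tumors (dark bar) and with each tumor left out (pale bars). The number called ran from 0 to 12, whereas the median stayed between 0.18 and 0.38.

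The effectors held most of the genes that rose, 4 of 7, with a median log2 fold change of 0.73. Mx1, on chromosome 16 of GRCm38 from 97447035 to 97462907, encodes a dynamin-like GTPase that blocks influenza virus, and is defective in C57BL/6 mice. It had 15, 16.3 and 11.8 CPM in sgScramble tumors 1, 4 and 5 and 36.9, 24.2, 28.9 and 30.1 CPM in icOVA tumors 15, 16, 18 and 2. The groups did not overlap, and the lowest icOVA tumor was number 16. On the log2 scale the change was 1.06 (SE 0.17, adjusted p = 0.0258, edgeR). Mx2, its neighbor 72400 bases away, had 5.92 to 9.44 CPM in sgScramble and 6.70 to 10.4 CPM in icOVA tumors, ranges that overlapped (log2 fold change 0.21, SE 0.22, adjusted p = 0.559, edgeR).

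Rsad2 (chromosome 12, 26442746 to 26456452) encodes viperin, an enzyme that makes a chain-terminating analog of CTP. Its level was 19.5, 17.7 and 11.8 CPM in sgScramble tumors 1, 4 and 5 and 28.8, 32.5, 32.0 and 32.1 CPM in icOVA tumors 15, 16, 18 and 2. The icOVA tumors lay close together, and all exceeded the controls (log2 fold change 0.94, SE 0.17, adjusted p = 0.0284, edgeR). Cmpk2 lies 12751 bases from Rsad2 (26469204 to 26479837) and encodes a mitochondrial nucleotide kinase that makes CTP, the substrate of viperin. It had 13.6, 17.6 and 10.2 CPM in sgScramble tumors 1, 4 and 5 and 22.1, 22.5, 25.9 and 24.3 CPM in icOVA tumors 15, 16, 18 and 2. Both neighbors were lowest in sgScramble tumor 5 and in icOVA tumor 15 within their groups. Cmpk2 had the weakest of the 7 calls (log2 fold change 0.78, SE 0.18, adjusted p = 0.0458, edgeR), and it did not pass when genes with low counts were kept in the test.

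Trim30a (chromosome 7, 104409025 to 104465193) encodes a tripartite motif protein that restrains Toll-like receptor signaling to NF-kappaB. It had 62.1, 66.4 and 50.2 CPM in sgScramble tumors 1, 4 and 5 and 105, 99.8, 89.6 and 100 CPM in icOVA tumors 15, 16, 18 and 2. All icOVA tumors exceeded all controls (log2 fold change 0.73, SE 0.11, adjusted p = 0.0230, edgeR). Its copy Trim30d rose as well (log2 fold change 0.81, SE 0.10, adjusted p = 0.0230, edgeR), and because reads can be split between near-identical copies, their separate values are uncertain. Isg20, an exonuclease that degrades viral RNA, had 47.5 to 57.9 CPM in sgScramble and 43.9 to 74.8 CPM in icOVA tumors (log2 fold change 0.24, adjusted p = 0.417, edgeR). Bst2 encodes tetherin, which holds budding virions at the cell surface. It had 182, 164 and 195 CPM in sgScramble tumors 1, 4 and 5 and 153, 231, 185 and 180 CPM in icOVA tumors 15, 16, 18 and 2. The icOVA tumors thus reached both below and above the controls, and the log2 fold change of 0.05 (SE 0.14, adjusted p = 0.830, edgeR) was -0.064 without icOVA tumor 16 and -0.0027 without sgScramble tumor 4.

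**Figure D3:**
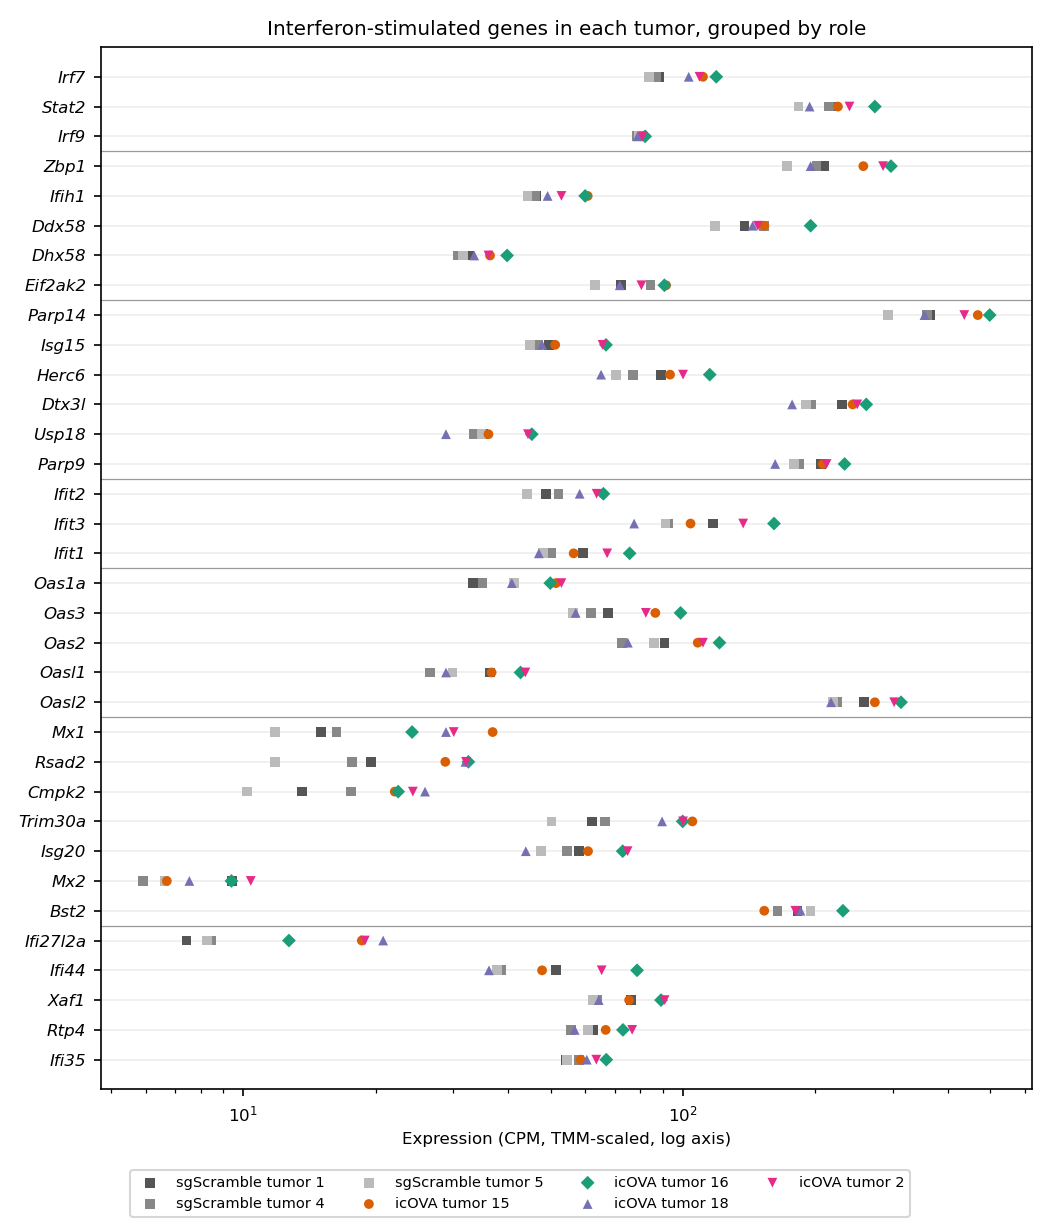
Expression of the 34 genes in each tumor (CPM scaled by the TMM method, log axis), with genes in rows grouped by role (gray lines) and ordered by fold change within a group. Squares are the 3 sgScramble tumors and the other symbols the 4 icOVA tumors. The icOVA tumor 18 (purple triangles) lies among or below the controls for most genes but to their right for 10, the 7 that rose and Ifih1, Dhx58 and Ifi35.

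Among 5 genes of less defined function, Ifi27l2a had the largest log2 fold change of the 34. It lies on chromosome 12 from 103442167 to 103443680 and encodes a small membrane protein related to human IFI27. It had 7.43, 8.45 and 8.28 CPM (258, 278 and 259 counts) in sgScramble tumors 1, 4 and 5 and 18.6, 12.7, 20.8 and 18.9 CPM in icOVA tumors 15, 16, 18 and 2. The icOVA tumor 18 was the highest and tumor 16 the lowest of its group (log2 fold change 1.14, SE 0.18, adjusted p = 0.0249, edgeR). Ifi44, Xaf1, Rtp4 and Ifi35 had log2 fold changes of 0.42, 0.24, 0.20 and 0.17 and did not pass. Of these, Ifi44 varied most, from 36.2 CPM in icOVA tumor 18 to 78.6 CPM in icOVA tumor 16, with 37.8 to 51.5 CPM in sgScramble tumors. XAF1 is a proapoptotic zinc finger protein that antagonizes XIAP, and RTP4 is a chaperone of G protein-coupled receptors. Ifi35, with 54.1 to 57.9 CPM in sgScramble and 58.5 to 66.9 CPM in icOVA tumors, was higher in every icOVA tumor, but its adjusted p was 0.170 (edgeR).

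Of the 3 transcription factors, 1 rose. Irf7 (chromosome 7, 141262706 to 141266481) encodes the factor that amplifies alpha interferon transcription in a feed-forward loop. It had 88.2, 87.0 and 83.6 CPM in sgScramble tumors 1, 4 and 5 and 111, 119, 103 and 109 CPM in icOVA tumors 15, 16, 18 and 2. The change was small but the tumors of each group were close together (log2 fold change 0.36, SE 0.07, adjusted p = 0.0314, edgeR). Stat2 and Irf9 encode parts of ISGF3. Stat2 had 220, 215 and 183 CPM in sgScramble tumors 1, 4 and 5 and 225, 273, 194 and 239 CPM in icOVA tumors 15, 16, 18 and 2, so that the groups overlapped (log2 fold change 0.18, SE 0.12, adjusted p = 0.383, edgeR). Irf9 was the most even of the 34, with 78.7 to 80.8 CPM in sgScramble and 78.8 to 82.0 CPM in icOVA tumors. This was also the smallest log2 fold change of the 34 (0.02, SE 0.05, adjusted p = 0.837, edgeR).

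The IFIT proteins bind foreign RNA, IFIT1 at caps that lack 2′-O methylation. Of the 3 genes, which lie in a cluster on chromosome 19, Ifit2 (34550694 to 34576419) rose. It had 48.7, 52.1 and 44.2 CPM in sgScramble tumors 1, 4 and 5 and 65.8, 65.9, 58.2 and 63.6 CPM in icOVA tumors 15, 16, 18 and 2. The groups did not overlap (log2 fold change 0.39, SE 0.08, adjusted p = 0.0374, edgeR). Ifit3 lies 7111 bases from Ifit2, and its icOVA tumors were spread further. It had 117, 92.3 and 91.2 CPM in sgScramble tumors 1, 4 and 5 and 104, 161, 77.4 and 137 CPM in icOVA tumors 15, 16, 18 and 2. The icOVA tumor 18 lay below every control and tumor 16 above every other tumor (log2 fold change 0.26, SE 0.24, adjusted p = 0.505, edgeR). The copy Ifit3b, which may share reads with Ifit3, did not pass (log2 fold change 0.26, adjusted p = 0.592, edgeR). Ifit1 had 59.2, 50.2 and 48.1 CPM in sgScramble tumors 1, 4 and 5 and 56.4, 75.6, 47.0 and 67.2 CPM in icOVA tumors 15, 16, 18 and 2, with tumor 18 again below every control (log2 fold change 0.23, SE 0.16, adjusted p = 0.396, edgeR).

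None of the 5 OAS genes passed with all tumors in edgeR, where 1 of the 5, Oas1a, had an unadjusted p below 0.05. Their median log2 fold change was 0.32. OAS enzymes make 2′-5′ oligoadenylates that activate RNase L, and OASL1 is an inactive relative that represses translation of Irf7. Oas1a had 33.3, 35.0 and 41.2 CPM in sgScramble tumors 1, 4 and 5 and 51.4, 49.9, 40.8 and 52.9 CPM in icOVA tumors 15, 16, 18 and 2. The icOVA tumor 18 fell just inside the control range and the other 3 lay above it (log2 fold change 0.42, SE 0.12, adjusted p = 0.0727, edgeR). The copy Oas1g, with which reads may be shared, did not pass (log2 fold change 0.38, adjusted p = 0.0931, edgeR). Oas3 had 67.6, 61.7 and 56.1 CPM in sgScramble tumors 1, 4 and 5 and 86.5, 98.7, 57.0 and 82.3 CPM in icOVA tumors 15, 16, 18 and 2. For Oas3 too, tumor 18 was within the control range and the other 3 above it. Its log2 fold change of 0.39 (SE 0.17, adjusted p = 0.192, edgeR) was 0.53 without tumor 18. Oas2, Oasl1 and Oasl2 had log2 fold changes of 0.32, 0.30 and 0.24, and each was lowest of the icOVA tumors in tumor 18.

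Of the 5 sensors of foreign nucleic acid, 0 passed with all tumors in edgeR, where Ifih1, Dhx58 and Zbp1 had an unadjusted p below 0.05. Ifih1 encodes MDA5, which detects long double-stranded RNA. It had 46.4, 46.2 and 44.3 CPM in sgScramble tumors 1, 4 and 5 and 60.7, 59.9, 49.2 and 52.9 CPM in icOVA tumors 15, 16, 18 and 2, with no overlap (log2 fold change 0.29, SE 0.09, adjusted p = 0.0926, edgeR). Zbp1 encodes a sensor of Z-form nucleic acid that can trigger necroptosis. It had 209, 201 and 172 CPM in sgScramble tumors 1, 4 and 5 and 257, 297, 195 and 285 CPM in icOVA tumors 15, 16, 18 and 2. As for Oas3, tumor 18 lay within the control range (log2 fold change 0.41, SE 0.15, adjusted p = 0.129, edgeR). Ddx58 (RIG-I), Dhx58 (LGP2) and Eif2ak2 (the kinase PKR, which halts translation) had log2 fold changes of 0.23, 0.20 and 0.19. Dhx58, at 30.7 to 32.7 CPM in sgScramble and 33.5 to 39.8 CPM in icOVA tumors, did not overlap between groups (adjusted p = 0.148, edgeR).

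The 6 genes of ISG15 conjugation and of the PARP-DTX3L complex had a median log2 fold change of 0.21, and 0 passed with all tumors in edgeR, where Parp14 had an unadjusted p below 0.05. Isg15 encodes a ubiquitin-like modifier. Its level was 49.6, 46.7 and 44.9 CPM in sgScramble tumors 1, 4 and 5 and 51.2, 66.8, 47.8 and 65.6 CPM in icOVA tumors 15, 16, 18 and 2. Tumors 16 and 2 stood above the rest, and tumor 18 was within the control range (log2 fold change 0.30, SE 0.13, adjusted p = 0.193, edgeR). Herc6, the main ISG15 ligase of the mouse, had 70.4 to 89.2 CPM in sgScramble and 65.1 to 115 CPM in icOVA tumors (log2 fold change 0.25, adjusted p = 0.417, edgeR). Usp18, which removes ISG15 and shuts off signaling at IFNAR2, had 33.5 to 35.1 CPM in sgScramble tumors and 36.1, 45.3, 28.9 and 44.4 CPM in icOVA tumors 15, 16, 18 and 2. Its control tumors were nearly equal while its icOVA tumors lay on both sides of them (log2 fold change 0.17, SE 0.15, adjusted p = 0.515, edgeR). Parp14, an ADP-ribosyltransferase, had 292 to 365 CPM in sgScramble and 354 to 498 CPM in icOVA tumors (log2 fold change 0.37, adjusted p = 0.127, edgeR). Parp9 and Dtx3l, whose products form a complex, had log2 fold changes of 0.10 and 0.18. Their exons overlap on opposite strands, and whether the counting used strand was not given in the sources used here, so their separate values are uncertain.

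The tumors differed from each other in these genes as a group. The icOVA tumor 18 had the lowest level of its group for 27 of the 34 genes (79.4%), against 35.6% of all genes tested, and icOVA tumor 16 the highest for 22 (64.7%), against 28.7%. Among the controls, sgScramble tumor 1 was highest for 24 (70.6%, against 28.6%) and sgScramble tumor 5 lowest for 23 (67.6%, against 32.3%). The places of icOVA tumors 16 and 18 and of sgScramble tumor 5 were not particular to the 34 genes. A list of 38 interferon gamma response genes had median log2 CPM of 9.01, 8.90, 8.80 and 8.41 in icOVA tumors 16, 2, 15 and 18. In sgScramble tumors 1, 4 and 5 its medians were 8.5932, 8.5945 and 8.3797, so that tumor 4, not tumor 1, was narrowly the highest control. The median difference of the 34 genes from the mean of the sgScramble tumors, in log2 CPM, was 0.24, 0.46, -0.0006 and 0.39 in icOVA tumors 15, 16, 18 and 2. Tumor 18 was thus level with the controls at the median, with 10 genes above all 3 of them and 9 below all 3. For the 7 genes that rose the same medians were 0.82, 0.74, 0.94 and 0.85, and for the other 27 they were 0.18, 0.43, -0.07 and 0.37. The split of the 34 into 7 and 27 was made by the same comparison, so these values describe the tumors and test nothing.

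**Figure D4:**
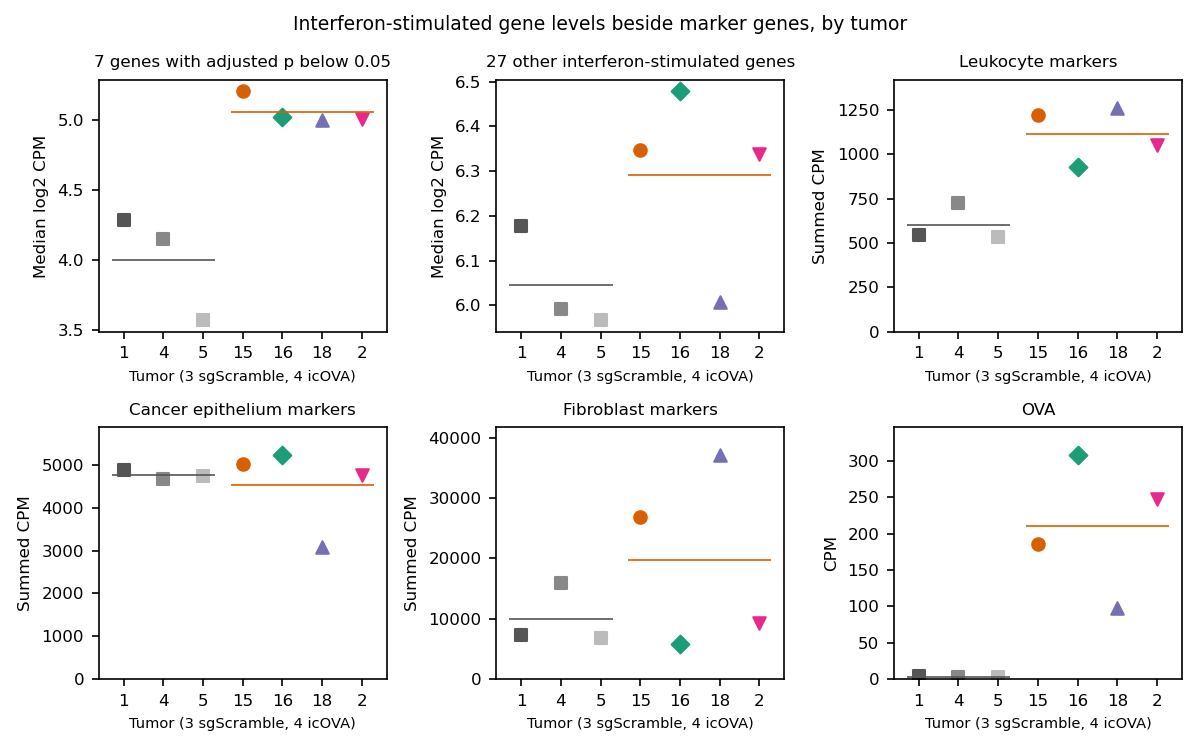
Median log2 CPM of the 7 genes that rose and of the other 27, summed CPM of leukocyte, cancer epithelium and fibroblast markers, and CPM of OVA, in each tumor (symbols as in the plot of levels by tumor, lines are group means). In the 27 genes, icOVA tumor 18 lies within the range of the controls, and in the 7 genes all 4 icOVA tumors lie above them. The first 2 vertical axes do not start at 0.

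Within groups, the SD of a gene in log2 CPM, pooled over both groups, had a median of 0.21 over the 34 genes and ran from 0.02 (Irf9) to 0.41 (Ifi44). The median over all genes tested was 0.20, and 0.14 over the 11026 with a mean level at least that of the least abundant of the 34. The median level of the 34 genes had a pooled SD between tumors of 0.16 in log2 CPM, and of 0.091 without icOVA tumor 18. Scaled per kilobase of exon, the levels in sgScramble tumors ran from 2.03 CPM per kb for Mx2 to 199 CPM per kb for Bst2. Mx1, Rsad2 and Cmpk2, at 3.80, 3.76 and 3.31 CPM per kb, were with Mx2 the 4 least abundant of the 34 on this scale, whereas Irf7 and Ifi27l2a, at 22.9 and 17.4 CPM per kb, were in the middle of the order.

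Cell type markers moved with these genes in different ways. The order of the 4 icOVA tumors by the median difference of the 34 genes, 16, 2, 15 and 18, was also their order by OVA, at 308, 248, 186 and 98.2 CPM. The median of the interferon gamma response genes gave the same order. With 4 tumors no relation can be tested, and OVA itself comes from the cancer cells, whose markers summed to 5230, 4770, 5020 and 3090 CPM in that order. Leukocyte markers ran in the reverse order by their sum, with 930, 1050, 1220 and 1260 CPM in icOVA tumors 16, 2, 15 and 18. By their median log2 CPM the order was not the exact reverse, with 7.30, 7.45, 7.52 and 7.43 in the same tumors. T cell markers, of which 8 of 9 rose (all but Trbc1), summed to 200 to 321 CPM in icOVA and 97.6 to 136 CPM in sgScramble tumors. Macrophage markers, of which 2 of 9 rose (Mertk and Cd68), summed to 1470 to 2230 CPM and 1090 to 1480 CPM. B and plasma cell markers, of which 3 of 6 tested rose (Mzb1, Jchain and Ighm), summed to 19.8 to 50.6 CPM and 13.3 to 15.1 CPM, with a median log2 fold change of 1.44. The largest was 7.87 for Mzb1, a ratio over low levels, given these sums. Of its 1215 exon bases, 695 are shared with a gene on the same strand, so its value is uncertain. NK cell markers, of which 1 of 5 rose (Eomes), summed to 44.4 to 93.1 CPM and 28.9 to 43.0 CPM. Of 5 endothelial markers 0 were called by edgeR, but 5 had an unadjusted p below 0.05 and DESeq2 called 4, with a median log2 fold change of 0.85. Of 6 tested neutrophil markers 0 were called by edgeR, 2 had an unadjusted p below 0.05 and DESeq2 called 1, with a median of 0.55. Without icOVA tumor 18, edgeR called 8 T cell, 3 B and plasma cell, 1 macrophage, 1 neutrophil, 4 plasmacytoid dendritic cell, 0 NK cell and 0 endothelial markers higher. Of 9 markers of plasmacytoid dendritic cells, which are known for high Irf7 and for alpha interferon, 4 rose (Ccr9, Siglech, Ly6d and Irf7), with sums of 385 to 454 CPM in icOVA and 368 to 377 CPM in sgScramble tumors. That list shares Irf7 and Bst2 with the 34 genes, and none of its 9 markers was at 0 in all tumors. These shared genes made up most of the sums. Bst2 had 153 to 231 CPM in icOVA and 164 to 195 CPM in sgScramble tumors, and Irf7 103 to 119 CPM and 83.6 to 88.2 CPM. The sums therefore largely repeat the levels of those genes. The part of these cells, and of the makeup of tumor 18, in the levels of the interferon-stimulated genes was not tested.

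Other genes of the interferon pathway, with some of type III interferon among them, were read from the same fit. Of 127 listed names 104 had a row and 103 were tested, of which 29 rose and 0 fell in edgeR, against 3.36% and 2.54% of all genes, with a median log2 fold change of 0.33. Without icOVA tumor 18, 37 rose, against 3.58% of all genes. Without sgScramble tumor 4 or icOVA tumor 16, 40 and 29 rose, against 862 of 17880 and 1014 of 17247 genes. Without sgScramble tumor 1, sgScramble tumor 5, icOVA tumor 15 or icOVA tumor 2, 0 rose, and 0, 0, 0 and 6 of all genes did. In the downward direction 1 gene had an unadjusted p below 0.05, Ifnlr1, a receptor of type III interferon with 3.05 to 8.08 CPM in icOVA and 10.0 to 17.6 CPM in sgScramble tumors (adjusted p = 0.0918, edgeR), and DESeq2 called 1 gene lower, the same Ifnlr1, which was named after its values were seen. Ifnb1 and the listed alpha interferon genes had no row, so their levels could not be read. Ifne, named after its values were seen, had a log2 fold change of 0.56 and did not pass in edgeR. Both chains of the receptor did not pass, Ifnar1 with a log2 fold change of 0.08 (adjusted p = 0.424, edgeR) and Ifnar2 with 0.25 (adjusted p = 0.0637, edgeR). The kinases Jak1 and Tyk2 had log2 fold changes of 0.38 and 0.09 (adjusted p = 0.0705 and 0.497, edgeR).

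Of the pathway genes that rose, the 5 with the largest log2 fold change were Ms4a4c (1.38), Ifi213 (1.37), Ifi209 (1.27), Slfn1 (1.19) and Tlr7 (1.12), with adjusted p values of 0.0349, 0.0308, 0.0269, 0.0257 and 0.0364 (edgeR). Ifi213 and Ifi209 belong to the PYHIN family, which binds DNA, Slfn1 is a Schlafen gene of T cells, and TLR7 detects single-stranded RNA in endosomes. Ifi209 had 20.4, 31.1 and 18.7 CPM in sgScramble tumors 1, 4 and 5 and 69.5, 49.0, 58.4 and 49.4 CPM in icOVA tumors 15, 16, 18 and 2. Here tumor 18 was the second highest, and tumor 16 the lowest, of the icOVA group.

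Listed by role, 1 of 5 tested ligands and receptors rose, Il10rb, which is not a chain of the receptor IFNAR1-IFNAR2. So did 2 of 10 genes of signaling and feedback (Ptpn6 and Socs1) and 3 of 19 genes of nucleic acid sensing (Tlr7, Irf5 and Ikbke). Of 69 other interferon-stimulated genes, 23 rose. Il10rb, Ptpn6, Socs1, Irf5 and Ikbke were named after their values were seen. Of 38 genes of the interferon gamma response 8 rose and 0 fell in edgeR, against 3.36% and 2.54% of all genes. Without icOVA tumor 18, 11 rose, against 3.58%. The median log2 fold change over all tumors was 0.30, from -0.27 for Ifngr2, a chain of the receptor for interferon gamma, to 1.10 for Nos2, the inducible nitric oxide synthase. Some of the 38 are also pathway genes, Cd274 and Socs1 among them. Of the 33 that are not, 6 rose, with a median of 0.29. The difference between these medians and that of the 34 genes was not tested.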

How the data were processed

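RNA-seq libraries were made with an Illumina TruSeq kit and sequenced as single reads of 76 bases. The methods name total RNA and the labels polyA RNA. The authors deposited raw counts per gene, whole numbers without normalization. The submitters' processing notes name mm10, and the aligner, counter and strand setting are not given in the sources used here. Symbols and coordinates came from GENCODE M21 (GRCm38), and 22414 of 22628 Ensembl identifiers had a symbol.

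Counts were filtered with filterByExpr (minimum count 10, minimum total 15), scaled by TMM and compared, 4 icOVA with 3 sgScramble tumors, by the quasi-likelihood test of edgeR 4.0.16 in R 4.3.3 without covariates, with Benjamini-Hochberg adjustment over all genes tested. SE is the log2 fold change over the square root of F. Log2 CPM had a prior count of 2. The code was tested on simulated data. DESeq2 1.42.0, limma-voom 3.58.1, other scalings and filters and leaving out each tumor were alternatives.

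The 34 genes and the other lists were chosen with earlier results of these data known. Named genes were all 34, Ifnb1, Ifnar1, Ifnar2, Jak1, Tyk2 and the 5 pathway genes with the largest change in each direction past the threshold, with Ptprc, OVA and Tbp for reference. Of the other lists, counts and the extreme genes were given. Near-identical copies were added. A gene of the named list and an allele of the cell line are not reported here.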

Additional observations from a re-analysis of the deposited data

Results flagged for a closer look

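Rsad2 in icOVA tumor 15 was below the other icOVA tumors, at 28.8 CPM against 32.5, 32.0 and 32.1 CPM in tumors 16, 18 and 2. The gap to the nearest tumor was 0.888 of the whole range in log2 CPM, which exceeds the 95% critical value that Dixon gives for 4 samples. All 34 genes were examined in the icOVA tumors, and chance would give about 1.7 such values. The range itself was narrow, and tumor 15 remained above all sgScramble tumors (11.8 to 19.5 CPM).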

How the results depend on the processing

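The calls depended on the tumors included and on the scale. With each tumor left out, between 0 and 12 of the 34 interferon-stimulated genes and between 0 and 40 pathway genes were called higher, 0 of either were called lower, and the median log2 fold change of the 34 genes ran from 0.18 to 0.38. The SD between tumors of their median level ran from 0.091 to 0.18 against 0.16, and was lowest without icOVA tumor 18. Bst2 took values from -0.064 to 0.15, with -0.0027 without sgScramble tumor 4. DESeq2 called 51 pathway genes higher and 1 lower, against 29 and 0 with edgeR. Of all 17489 genes, DESeq2 called 1558 higher and 1278 lower, against 588 and 444 with edgeR. Scaled to Ptprc, 0 of the 34 genes were called higher and 28 lower, and 0 pathway genes higher and 67 lower. With that scale 80.4% of all genes fell, and the median log2 fold change of the 34 was -0.81. By this scale, which moved the median of all genes to -1.1 and so shifts each value by construction, the log2 fold changes were -1.08 for Irf9, -1.04 for Bst2, -0.98 for Parp9, -0.91 for Ifi35, -0.91 for Usp18, -0.90 for Dtx3l, -0.89 for Rtp4, -0.89 for Dhx58, -0.89 for Stat2, -0.88 for Eif2ak2, -0.86 for Mx2, -0.84 for Oasl2, -0.84 for Ifit1, -0.83 for Xaf1, -0.83 for Ddx58, -0.82 for Herc6, -0.82 for Isg20, -0.81 for Ifih1, -0.80 for Ifit3, -0.79 for Oasl1, -0.78 for Oas2, -0.77 for Isg15, -0.73 for Irf7, -0.70 for Parp14, -0.69 for Ifit2, -0.68 for Oas1a, -0.68 for Oas3, -0.65 for Zbp1, -0.64 for Ifi44, -0.34 for Trim30a, -0.26 for Cmpk2, -0.12 for Rsad2 and -0.030 for Mx1. Beyond fewer tumors and the change of scale, the cause was not tested. Under the other alternatives with all tumors (limma-voom, RLE, upper quartile, library totals, Tbp, other filters and prior counts), the counts stayed within 1.5 times those given and the median kept its direction. The legend of the paper's heat map speaks of paired sgScramble and icOVA-expressing cells. In the labels the sgScramble and icOVA tumors have no number in common, so no paired analysis was possible. The lowest count of any of the 34 genes in a tumor was 195, for Mx2.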
